A study of Mus musculus with 6 samples.

Results

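The azurophil granule genes of early neutrophils considered here were Mpo, Elane, Prtn3, Ctsg, Serpinb1a, Srgn and Fcnb, which are 7 of the 55487 genes in the table. They were chosen by name, from what is known of the granule, and not by a threshold on any value. Earlier results of these data were known at that point, so counts over the members are not independent of the choice. The libraries came from mouse bone marrow cells positive for Kit, the receptor of stem cell factor. In all 6 libraries the cells carried a lentivirus expressing MLLT3, were sorted, and were then grown for 8 days in methylcellulose. The medium held Flt3 ligand at 10 ng/mL, other cytokines at 20 ng/mL and 4-hydroxytamoxifen at 200 nM to delete the endogenous Mllt3 gene. How complete the deletion was cannot be read from the values used here. In the 3 wild type (WT) libraries the vector carried unaltered MLLT3, and in the 3 double mutant (DM) libraries it carried MLLT3 with the substitutions K63E and K67E. Strain, age, the driver of the recombinase and the promoter of the vector are not given in the sources used here, and no group without a vector or without the deletion was analysed here.

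Azurophil granules are the first granules that a neutrophil makes, at the promyelocyte stage, and their genes are switched on in granulocyte and monocyte progenitors before those of the specific and gelatinase granules. The granule stores myeloperoxidase, which makes hypochlorous acid, and serine proteases that cathepsin C activates and that are packed on the sulfated chains of serglycin. A cytosolic serpin protects the cell from protease that leaks out. MLLT3 is a reader of acylated histones and a partner of complexes that act on transcription elongation. Its YEATS domain is the part that binds these marks. The comparison addresses how gene expression differs between cultures with K63E and K67E MLLT3 and cultures with unaltered MLLT3, after 8 days of growth. What the substitutions do to binding of the marks was not measured here.

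The promoters of the members were inspected for stretches that they share, since 5 of these genes were lower in DM libraries. Windows of 250 bases before the start of the RefSeq gene model (GRCm38.p6) matched 6 of the 7 members, with 2 windows for Srgn and none for Serpinb1a. Outside the 5 lower genes, Srgn was thus the only member that could be inspected. Its window at chr10:62507758-62508007 lies inside the GENCODE M21 bounds of Srgn, with 174 of 250 bases exonic. The window at chr10:62527446-62527695 has 6 exonic bases. The stretch AGGAAGT, of the kind that ETS factors such as PU.1 bind, was found on the gene strand in the windows of Elane, Prtn3, Mpo, Fcnb and Ctsg and in neither window of Srgn. Each is printed from 5′ to 3′ on the gene strand with the stretch in capitals.
Elane, chr10:79886217-79886246, + strand: gtgtcccagggAGGAAGTagggctgtggcc
Prtn3, chr10:79879562-79879591, + strand: aaactggaaggAGGAAGTgggacccacagc
Mpo, chr11:87793550-87793579, + strand: tggagagagagAGGAAGTtgcctttgtccc
Fcnb, chr2:28084963-28084992, - strand: cagaggcctccAGGAAGTgactatctcctg
Ctsg, chr14:56102762-56102791, - strand: agaggaagaaaAGGAAGTagtcacctgttt

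The stretch began 84 bases before the RefSeq start of Elane, 94 before that of Prtn3, 103 before that of Fcnb, 206 before that of Ctsg and 223 before that of Mpo. The GENCODE M21 genes, whose bounds are given for each member with its values, can start elsewhere. Their starts lie 65 bases before the RefSeq start for Elane, 203 for Mpo, 7 for Fcnb and 5191 for Prtn3, and the starts are the same for Ctsg. Counted from the GENCODE start, the stretch began 19 bases upstream for Elane, 20 for Mpo, 96 for Fcnb and 206 for Ctsg, while in Prtn3 it lies inside the gene bounds and in no exon. None of the 5 printed AGGAAGT stretches overlaps a GENCODE exon. It was picked after the 7 windows had been read, and 7.69% of 32851 RefSeq windows hold it on either strand. Elane and Prtn3, which are neighbours on chromosome 10, also share CAACGG, of the kind that MYB binds, at 51 and 56 bases before their RefSeq starts. By GENCODE M21 both copies lie inside the gene bounds, with all 6 bases exonic in Elane and 3 of 6 in Prtn3. That stretch was likewise picked after reading, and 4.05% of windows hold it.
Elane, chr10:79886249-79886278, + strand: gatggggcaataCAACGGcctctggttcca
Prtn3, chr10:79879599-79879628, + strand: ttagccactgttCAACGGctcccggcagag
Of the core motifs searched on both strands, GAGGAA (PU.1) was in the windows of Prtn3, Elane, Mpo and Ctsg and in 23.3% of all windows, and in Prtn3, Elane and Mpo one copy overlaps AGGAAGT. TTGCNNAA (C/EBP) was in the window of Fcnb alone among the members and in 9.56% of all windows. TGTGGT (RUNX) was in the windows of Ctsg and of Srgn and in 14% of all windows. AACNG (MYB) was in every window found for a member and in 74.2% of all windows. These are matches of letters and were not tied to binding in these cells.

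The values are on a log2 scale after the regularized log transform (rlog), and the authors normalized them for library size. A difference of 1 is a doubling, and the transform pulls low genes toward their mean, so the changes of low genes are understated. Depth per library is unknown because the table holds no counts. limma was applied to the 18766 genes whose mean over the libraries reached 3, and a gene is said to have been called, or to have risen or fallen, where its Benjamini-Hochberg adjusted p over all tested genes was under 0.05. The labels do not say that replicates came from separate animals or cultures, so p-values measure the spread between these libraries, which may be technical. Mllt3, on chromosome 4, was at 12.87, 12.6 and 12.44 in WT libraries and 12.44, 12.03 and 11.99 in DM libraries. Its mean difference was -0.48 (limma, adjusted p = 0.0448), a call lost in 7 of 13 alternative settings, among them those without WT replicate 1 or 2 or DM replicate 2 or 3. Transcript from the vector and from the endogenous gene cannot be told apart in these values. Kit lay between 14.29 and 14.9 in all 6 libraries.

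Mpo, Elane, Prtn3 and Fcnb were far lower in DM than in WT libraries, Ctsg was lower by a smaller amount, and Serpinb1a and Srgn were not called. The peroxidase and the linked pair of proteases fell 10.4- to 18.7-fold, while the means of the third protease, of the protease inhibitor and of the core protein that holds the proteases were lower by 1.55-fold or less. All 7 members passed the filter on low values, and the lowest value of any member in any library was 7.3. Of the 7 members, 5 were called lower (71.4%), beside 4.71% of all tested genes. The share of all genes called in either direction was 13.9%, and quantile normalization raised the share called lower to 6.88% and turned the split from 66.1% to 51.3% of calls higher. No WT library overlapped with a DM library for 5 members, beside 35.8% of all tested genes. Called and lower by over 1 were 4 members, beside 0.368% of tested genes. The median change was -2.31 for the members and 0.01 for all tested genes. In bulk libraries, fewer cells of a type and less RNA per cell cannot be told apart. Over the same libraries the summed level of 18 monocyte and macrophage markers was 16.96 to 17.66 in WT and 17.97 to 18.24 in DM. The abundant gene Gpnmb carries the largest part of that sum. For 20 proliferation genes the summed level was 16.42 to 16.57 in WT and 16.03 to 16.21 in DM. The part of these markers in the falls of the members was not tested.

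**Figure D1:**
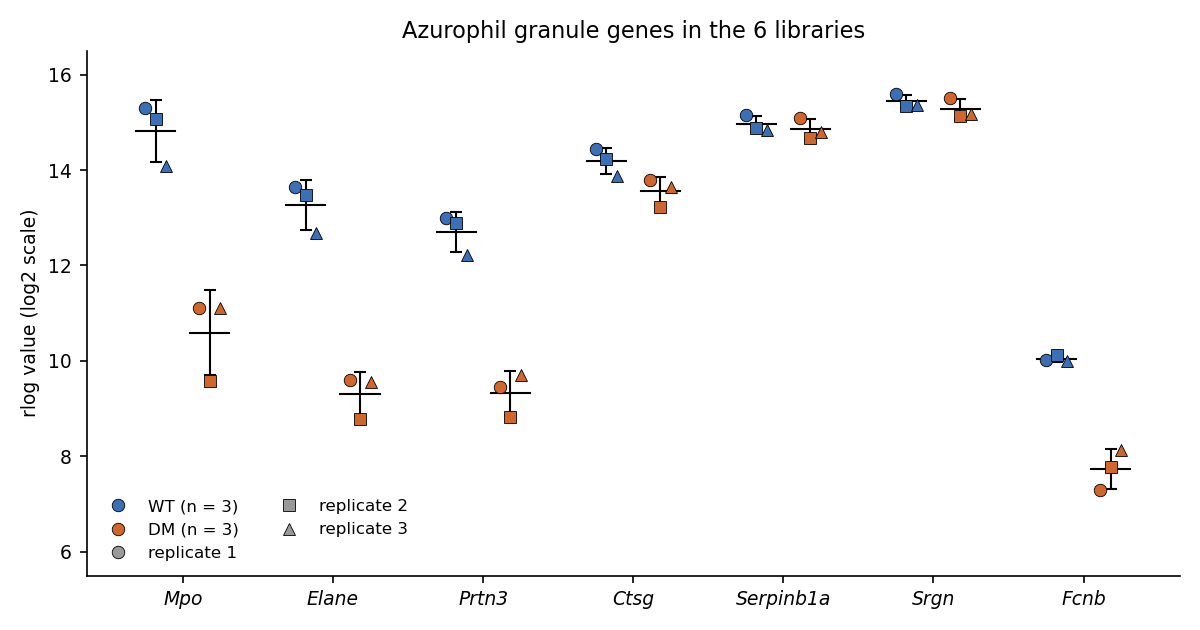
rlog values (log2 scale, vertical axis) of the 7 azurophil granule genes in each of the 3 WT and 3 DM libraries, with 1 point per library, a bar at each group mean and error bars of 1 SD. The groups are apart by over 1.8 for Mpo, Elane, Prtn3 and Fcnb, are 0.08 apart at their nearest libraries for Ctsg, and overlap for Serpinb1a and Srgn.

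Mpo (ENSMUSG00000009350.13) encodes myeloperoxidase, the most abundant protein of the granule, and lies at chr11:87793581-87804413 on the + strand. Its rlog values were 15.3, 15.07 and 14.09 in WT libraries 1, 2 and 3 and 11.1, 9.57 and 11.1 in DM libraries 1, 2 and 3. Every DM library was at least 2.98 below every WT library, and DM replicate 2 was the lowest of all. The mean went from 14.82 ± 0.643 to 10.59 ± 0.887 (SD, n = 3 each), a change of -4.23 (SE 0.409, 95% interval -5.14 to -3.31), or 18.7-fold lower (limma, adjusted p = 0.000444).

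Elane (ENSMUSG00000020125.7), at chr10:79886247-79888215 on the + strand, encodes neutrophil elastase. Its values were 13.65, 13.47 and 12.68 in WT libraries and 9.59, 8.78 and 9.56 in DM libraries. The groups were 3.09 apart, the widest gap among the members. The mean fell from 13.27 ± 0.516 to 9.31 ± 0.457 (SD, n = 3 each), a change of -3.96 (SE 0.261, 95% interval -4.54 to -3.37), or 15.5-fold lower (limma, adjusted p = 0.000118).

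Prtn3 (ENSMUSG00000057729.12) encodes proteinase 3, a protease related to elastase, and lies just upstream of Elane at chr10:79874476-79883174 on the + strand. Its values were 13, 12.89 and 12.22 in WT libraries and 9.46, 8.83 and 9.71 in DM libraries, with a gap of 2.51 between the groups. The mean fell from 12.7 ± 0.425 to 9.33 ± 0.453 (SD, n = 3 each), a change of -3.37 (SE 0.236), or 10.4-fold lower with a 95% interval of 7.18 to 14.9 (limma, adjusted p = 0.000118).

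Fcnb (ENSMUSG00000026835.15), at chr2:28076378-28084885 on the - strand, encodes ficolin B, a lectin that binds microbial sugars and starts the lectin pathway of complement. Its values were 10.02, 10.13 and 10.0 in WT libraries and 7.3, 7.77 and 8.13 in DM libraries. The WT libraries were within 0.13 of each other, the narrowest WT range of the members, while the DM libraries spanned 0.83. The mean fell from 10.05 ± 0.069 to 7.74 ± 0.415 (SD, n = 3 each), a change of -2.31 (SE 0.167), or 4.97-fold lower with a 95% interval of 3.84 to 6.44 (limma, adjusted p = 0.000118).

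Ctsg (ENSMUSG00000040314.2), at chr14:56099881-56102574 on the - strand, encodes cathepsin G, a protease of the same granule with chymotrypsin-like specificity. Its values were 14.44, 14.24 and 13.88 in WT libraries and 13.8, 13.23 and 13.64 in DM libraries, so the lowest WT library stood only 0.08 above the highest DM library. The mean fell from 14.19 ± 0.281 to 13.56 ± 0.295 (SD, n = 3 each), a change of -0.63 (SE 0.165), or 1.55-fold lower with a 95% interval of 1.2 to 2.0 (limma, adjusted p = 0.032). The call depended on single libraries: the limma adjusted p became 0.115 when WT replicate 1 was left out, 0.0586 for WT replicate 2, 0.107 for DM replicate 2 and 0.0749 for DM replicate 3.

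Serpinb1a (ENSMUSG00000044734.16), at chr13:32842092-32851185 on the - strand, encodes the inhibitor of elastase, proteinase 3 and cathepsin G that neutrophils keep in the cytosol. Its values were 15.15, 14.88 and 14.84 in WT libraries and 15.1, 14.67 and 14.79 in DM libraries, and the groups overlapped. The change was -0.1 with a 95% interval of -0.39 to 0.19 (limma, adjusted p = 0.633). Reads may be shared with its close copies Serpinb1b and Serpinb1c, of which Serpinb1b had a WT mean of 2.96 and was not tested, and Serpinb1c had a difference of 0.05 (limma, adjusted p = 0.578).

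Srgn (ENSMUSG00000020077.14), at chr10:62493833-62527451 on the - strand, encodes serglycin, the proteoglycan core protein of granules in many blood cells. Its values were 15.59, 15.35 and 15.36 in WT libraries and 15.52, 15.13 and 15.18 in DM libraries, and the groups overlapped. The change was -0.16 with a 95% interval of -0.43 to 0.11 (limma, adjusted p = 0.407). The intervals of Serpinb1a and Srgn leave room for a small fall. They do not reach the estimate for Ctsg, -0.63, but overlap its 95% interval of -1.0 to -0.26, and the difference from Ctsg was not tested.

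Leaving out libraries 1 at a time left Mpo between -4.59 and -3.71, Elane between -4.25 and -3.69, Prtn3 between -3.62 and -3.12 and Fcnb between -2.51 and -2.1, each called every time. These 4 calls were lost in 1 of 13 alternatives, the fit over all 55487 genes with no filter, where limma's adjusted p was 0.118 for Mpo, 0.0616 for Elane, 0.0706 for Prtn3 and 0.0698 for Fcnb. That fit called 138 genes in all. With the 7553 genes listed at 0 in every library taken out of it, all 5 members were called again.

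The members were then set against Elane within each library, to see whether they fell by the same amount. Mpo stood above Elane by 1.55 ± 0.127 in WT and by 1.28 ± 0.431 in DM libraries (SD, n = 3 each), and these ranges overlapped (exact two-sided permutation test, p = 0.5, adjusted over 6 comparisons 0.5). The difference between the groups in this quantity was -0.27, so Mpo and Elane were lower by amounts that the spread does not separate. Prtn3 was below Elane by a difference of -0.56 ± 0.094 in WT libraries and level with it, at 0.02 ± 0.145, in DM libraries, a shift of 0.58 with no overlap (exact permutation p = 0.1, adjusted 0.12). Fcnb shifted by 1.64, from -3.22 ± 0.49 to -1.58 ± 0.65. The shifts were larger for Ctsg at 3.32, Srgn at 3.8 and Serpinb1a at 3.86. For these 5 members the groups did not overlap, and each had the exact permutation p of 0.1 (adjusted 0.12), the smallest that 3 against 3 libraries allow. The test therefore cannot pass 0.05 here, and the shifts are given as sizes.

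**Figure D2:**
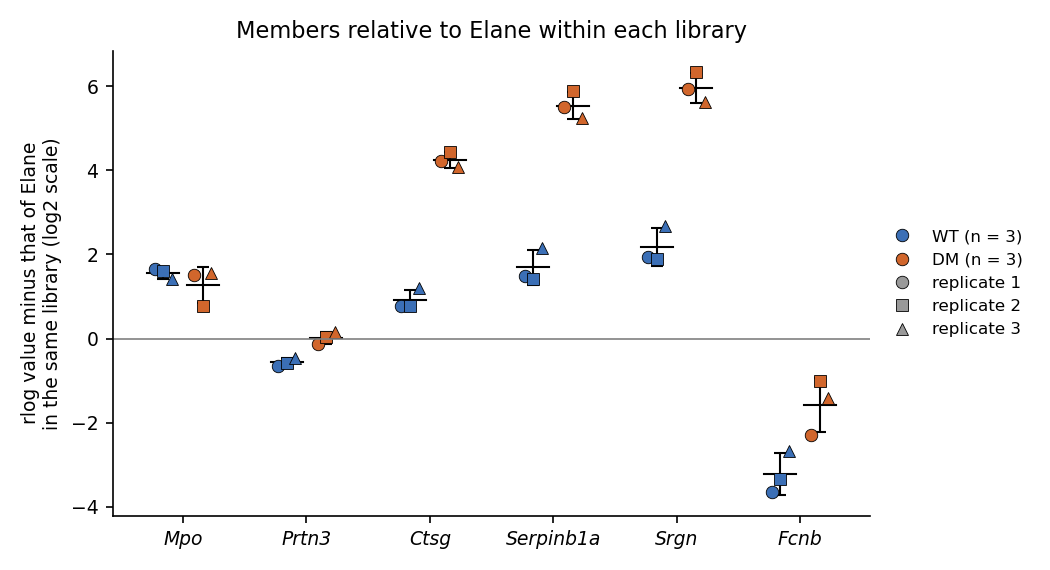
Difference of each member's rlog value from that of Elane in the same library (log2 scale), with 1 point per library for the 3 WT and 3 DM libraries, a bar at each group mean and error bars of 1 SD. Mpo keeps its distance within the spread, Prtn3 moves from below Elane to level with it, and Ctsg, Serpinb1a and Srgn move up by over 3.

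Levels can be compared between genes only per length, and were set on the scale of rlog per kb of exon (GENCODE M21). Length joined the exons of all transcripts of a gene, 1732 bases for Prtn3 with 6 transcripts and 984 for Elane with 1. The order and the gaps depend on this choice. In WT libraries the mean level was highest for Srgn at 14.3, then Ctsg at 14.14, Serpinb1a at 13.75, Elane at 13.29, Mpo at 13.04, Prtn3 at 11.91 and Fcnb at 9.63. The ranges of neighbours in this order overlapped down to Mpo, while Prtn3 was apart from Mpo and Fcnb from Prtn3. In DM libraries the order was Srgn at 14.14, Serpinb1a at 13.65, Ctsg at 13.51, Elane at 9.33, Mpo at 8.82, Prtn3 at 8.54 and Fcnb at 7.31. There Ctsg overlapped with Serpinb1a, Elane with Mpo and Mpo with Prtn3, while a gap separated Ctsg from Elane. Among 14030 tested protein-coding genes, Elane ranked 76, 95 and 158 from the top on this scale in WT libraries and 1880, 3209 and 1891 in DM libraries. Ctsg ranked 39, 52 and 61 in WT and 73, 122 and 82 in DM libraries, so the cathepsin transcript stayed among the most abundant ones. Fcnb went from ranks of 1750, 1704 and 1668 to 7407, 6434 and 5615.

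**Figure D3:**
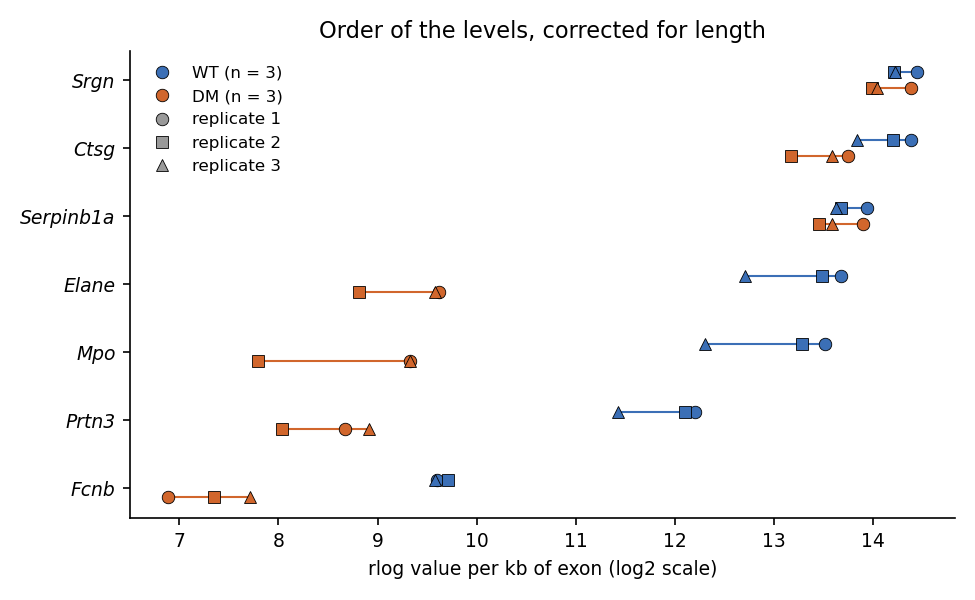
Level of each member per kb of exon (rlog value less the log2 of exonic length in kb, horizontal axis), with 1 point per library and a line over each group's range. Srgn, Ctsg and Serpinb1a lie above 13 in both groups, while Elane, Mpo, Prtn3 and Fcnb are shifted to the left in DM libraries.

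As a share of the back-transformed sum over protein-coding genes, Mpo, Elane, Prtn3 and Fcnb together held 0.236%, 0.193% and 0.118% in WT and 0.013%, 0.00621% and 0.0141% in DM libraries. Ctsg, Serpinb1a and Srgn together made up 0.408%, 0.324% and 0.344% in WT and 0.327%, 0.237% and 0.271% in DM libraries. All 7 made up 0.462% to 0.644% of the WT and 0.243% to 0.341% of the DM libraries, which did not overlap. The fall of the first set left the DM pool of these transcripts almost entirely to the other three genes.

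The members varied among replicates more than most genes with a mean of at least 8. The SD within groups was 0.774 for Mpo, 0.487 for Elane, 0.439 for Prtn3, 0.298 for Fcnb, 0.288 for Ctsg, 0.199 for Serpinb1a and 0.178 for Srgn, where the median of those 9496 genes was 0.0911. Within the WT group, replicate 1 was highest for 6 of the 7 members, all but Fcnb, and replicate 3 was lowest for 6, all but Srgn. Within the DM group, replicate 2 was lowest for 6, all but Fcnb, whose lowest library was replicate 1. The specific granule gene Ltf, which encodes lactoferrin and is made later in maturation, had another order: 14.5, 15.19 and 15.61 in WT and 12.94, 14.25 and 14.29 in DM libraries. WT replicate 3 was thus the lowest of its group for Elane and the highest for Ltf.

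Profiles were compared by centring each gene's 6 values on their mean and taking the mean absolute difference between 2 genes, in log2 units. Among all tested genes Elane was closest to Mpo (0.214), Mpo was closest to Elane, and Elane was closest to Prtn3 (0.292). Outside the members, Ms4a3, a marker of granulocyte and monocyte progenitors, was the nearest to Mpo (0.761), Elane (0.627) and Prtn3 (0.335), at 11.97, 11.9 and 11.38 in WT and 8.98, 8.85 and 9.32 in DM libraries. The next were Stfa1, a cystatin of neutrophils, for Mpo (0.845) and Elane (0.679), and Lipg, endothelial lipase, for Prtn3 (0.476). Fcnb was nearest to Lipg (0.119) and Plac8 (0.166) rather than to another member, its nearest member being Prtn3 (0.539). Ctsg was nearest to Myb (0.078), at 12.25, 12.12 and 11.77 in WT and 11.64, 11.25 and 11.31 in DM libraries, and to Klhl23 (0.0939). Serpinb1a and Srgn had 616 and 669 genes within 0.1 of their profiles, and were 0.0368 from each other, which made Srgn the second nearest of all tested genes to Serpinb1a. Outside the members the nearest were Rpl36-ps2 (0.0257) and Rpl35a-ps3 (0.0376) for Serpinb1a, and Diaph3 (0.03) and Ero1l (0.0311) for Srgn. These distances describe 6 libraries and carry no test. They depend strongly on the size of the change, in which Mpo, Elane and Prtn3 ranked 1, 2 and 3 from the lowest among all tested genes. Nearness therefore largely reflects a like size of change.

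Genes next to the members were examined because Prtn3 and Elane lie side by side. Within 100 kb of a member lay 67 other genes, of which 43 were tested, 10 were called lower and 3 higher, with a median change of -0.06. Of all tested genes, 4.71% were called lower and 9.2% higher. Among the 10 lower neighbours, 6 lay in the single stretch within 100 kb of Prtn3. On chromosome 10, the protease gene Prss57, which encodes neutrophil serine protease 4, had a change of -1.86 (limma, adjusted p = 0.000143). In the same stretch the called genes Plppr3 (-1.94), Palm (-1.17), R3hdm4 (-0.47), Fstl3 (-0.32) and Kiss1r (-0.29) were also lower. The calls of Fstl3 (without WT replicate 1 or 3 or DM replicate 1 or 2) and Kiss1r (without any DM replicate) depended on single libraries. Between and beside them Ptbp1, a splicing factor gene, differed by -0.09 (limma, adjusted p = 0.521), and Med16 by -0.08 (limma, adjusted p = 0.402). Cfd, 2638 bases from Elane and itself a serine protease gene of the complement system, had means of 2.55 and 2.49 and was not tested. Plppr3 overlaps Prtn3 on the opposite strand, and since the use of strand in counting is not stated, reads of the pair cannot be told apart.

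**Figure D4:**
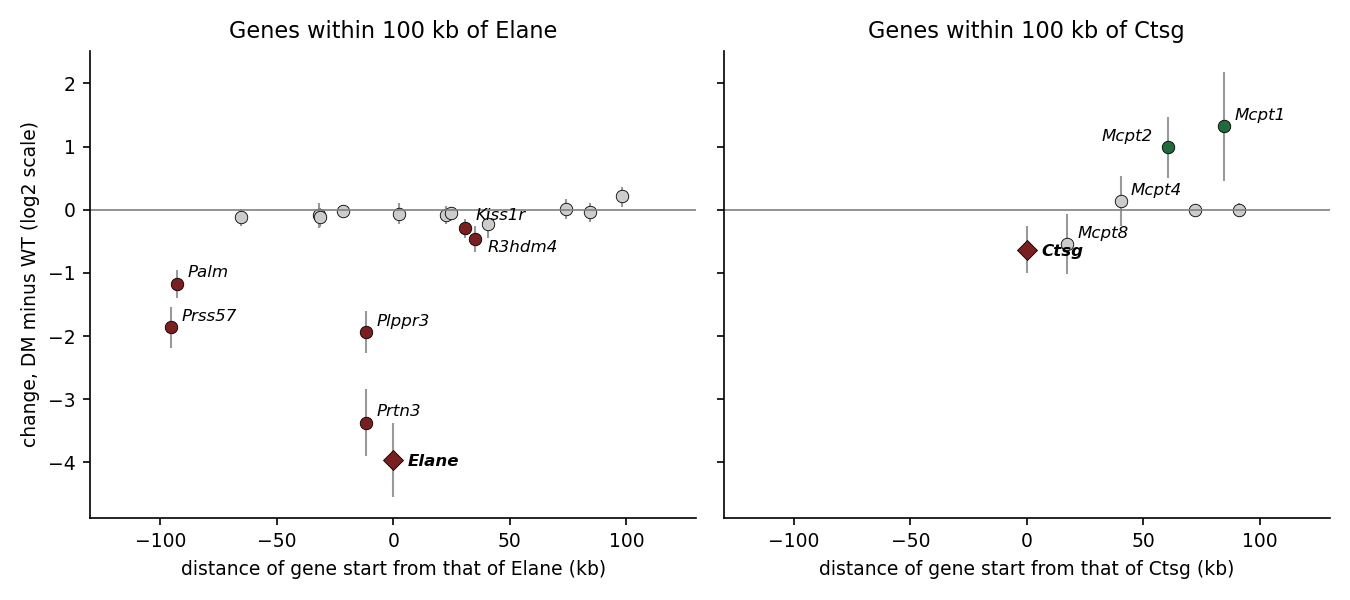
Change from WT to DM (log2 scale, with 95% intervals) of tested genes within 100 kb of Elane (left) and Ctsg (right) against the distance between gene starts, counted in the direction of transcription of Elane or Ctsg. Diamonds mark Elane and Ctsg, red marks genes called lower, green marks genes called higher and grey marks genes not called.

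Near Mpo, the gene of the eosinophil peroxidase Epx fell by 1.46 (limma, adjusted p = 0.000118), from 13.64, 13.91 and 13.66 to 12.29, 12.08 and 12.45, and the third peroxidase gene, Lpo, differed by -0.14 (limma, adjusted p = 0.208) at means of 3.64 and 3.49. Gm11505, antisense to Mpo, had a change of -1.04 (limma, adjusted p = 0.0043) and is subject to the same limit on strand. Around Ctsg, which belongs to a cluster of mast cell protease genes, Mcpt2 rose by 0.99 (limma, adjusted p = 0.0163) and Mcpt1 by 1.32 (limma, adjusted p = 0.0491), a call that was lost in 10 of 13 alternatives. The related genes Mcpt4, at 0.14 (limma, adjusted p = 0.615), and Mcpt8, at -0.54 (limma, adjusted p = 0.122), were not called, though Mcpt8 was without WT replicate 1, and reads may be shared among these copies. Ctsg and its neighbours therefore did not move in a common direction. The remaining called neighbours were Tspoap1 near Mpo (-0.57), F730016J06Rik near Fcnb (-1.44) and Vps26a near Srgn (0.28). The call of Tspoap1 was lost without WT replicate 1 or 2 or DM replicate 1 or 2, and that of Vps26a in every fit that left out 1 library except WT replicate 2.

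Other contents of the azurophil granule went mostly the other way. Of 15 listed genes, all tested, 9 were called higher, 2 lower and 4 were not called, with a median change of 0.39, where 9.2% of all tested genes were called higher. Most of these genes are lysosomal hydrolases that macrophages also make. Those that rose included Lyz2, lysozyme, at 17.81, 18.28 and 17.6 in WT and 18.57, 19.0 and 18.69 in DM libraries (0.86, limma, adjusted p = 0.0176). The 2 that fell were the protease Prss57 and Arsb, arylsulfatase B (-0.79, limma, adjusted p = 0.0011), whereas Bpi, which encodes a protein that binds endotoxin, differed by -0.06. Leaving out WT replicate 1 or DM replicate 2 brought the count called higher to 4, and leaving out WT replicate 3 brought it to 5, and the call of Lyz2 was lost in each of these fits. Macrophage markers were higher in the same DM libraries, and their part in these rises was not tested.

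Genes that build the granule or activate its proteases were mostly not called. Of 16 tested, 2 were higher, 1 was lower and 13 were not called, with a median of 0.12. Over all tested genes 9.2% were called higher and 4.71% lower, the shares to set beside this and the list counts that follow. Rab27a, a GTPase of granule release, fell from 11.96, 11.95 and 11.95 to 11.3, 11.34 and 11.39 (-0.61, limma, adjusted p = 0.000687). Ctsc, cathepsin C, which trims the proteases to their active form, had a difference of 0.28 (limma, adjusted p = 0.0634) that was called in 4 of 13 alternatives (limma, adjusted p from 0.00791 to 0.491 over all 13), among them that without WT replicate 2, and Cst7, its inhibitor cystatin F, of -0.15 (limma, adjusted p = 0.292). The genes of the AP-3 adaptor that sorts granule cargo, Ap3b1 and Ap3d1, were both called at 0.27, and neither call held without WT replicate 1 or 3 or any DM replicate, while 6 genes were called higher without WT replicate 2.

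Of 15 listed inhibitors of serine proteases 10 were tested, of which 2 were higher, 1 was lower and 7 were not called, with a median of 0.15. Serpinb6a, an inhibitor of cathepsin G, rose by 0.5 (limma, adjusted p = 0.0105) and Serpinb8 by 0.45 (limma, adjusted p = 0.0224). Slpi, the secreted leukocyte protease inhibitor, was lower at -0.42 (limma, adjusted p = 0.0269), a call that held only without WT replicate 1 among the fits that left out 1 library. When WT replicate 1, WT replicate 3 or DM replicate 1 was left out, 1 inhibitor was called higher, and Serpinb8 was not called in these fits or without DM replicate 2.

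The enzymes that make the sugar chains of serglycin gave 6 called higher, 1 lower and 15 not called of 22 tested, with a median of 0.11. Xylt1, which adds the xylose that begins each chain, rose by 0.43 (limma, adjusted p = 0.025), Ext1, a polymerase of heparan sulfate, by 0.39 (limma, adjusted p = 0.023) and Chsy1, a polymerase of chondroitin, by 0.34 (limma, adjusted p = 0.0404). Chst13, which sulfates chondroitin, fell by 0.51 (limma, adjusted p = 0.00447). Leaving out WT replicate 1 or DM replicate 2 brought the count called higher to 0, leaving out WT replicate 3 to 1, and leaving out DM replicate 1 or 3 to 2. Xylt1 and Ext1 each lost the call without WT replicate 1 or 3 or DM replicate 2 or 3, and Chsy1 in every such fit but that without DM replicate 3.

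In the lectin pathway, 4 of 8 genes were tested besides Fcnb, of which 1 was called. The paralog Fcna, ficolin A, which macrophages make, differed by 0.01 (limma, adjusted p = 0.929), and this sign turned under median centring and without WT replicate 1 or DM replicate 2. Colec12, a scavenger receptor with a collectin domain, rose by 0.42 (limma, adjusted p = 0.0201), a call lost without WT replicate 1 or 3 or DM replicate 2 or 3. Mbl1, Mbl2, Colec10 and Colec11 had means under the filter. Fcna, Masp1 and Masp2 were low, at WT means of 4.65, 4.36 and 3.35, where the transform understates changes. Among the tested genes of the pathway, Fcnb was the only gene with a called fall in this fit.

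**Figure D5:**
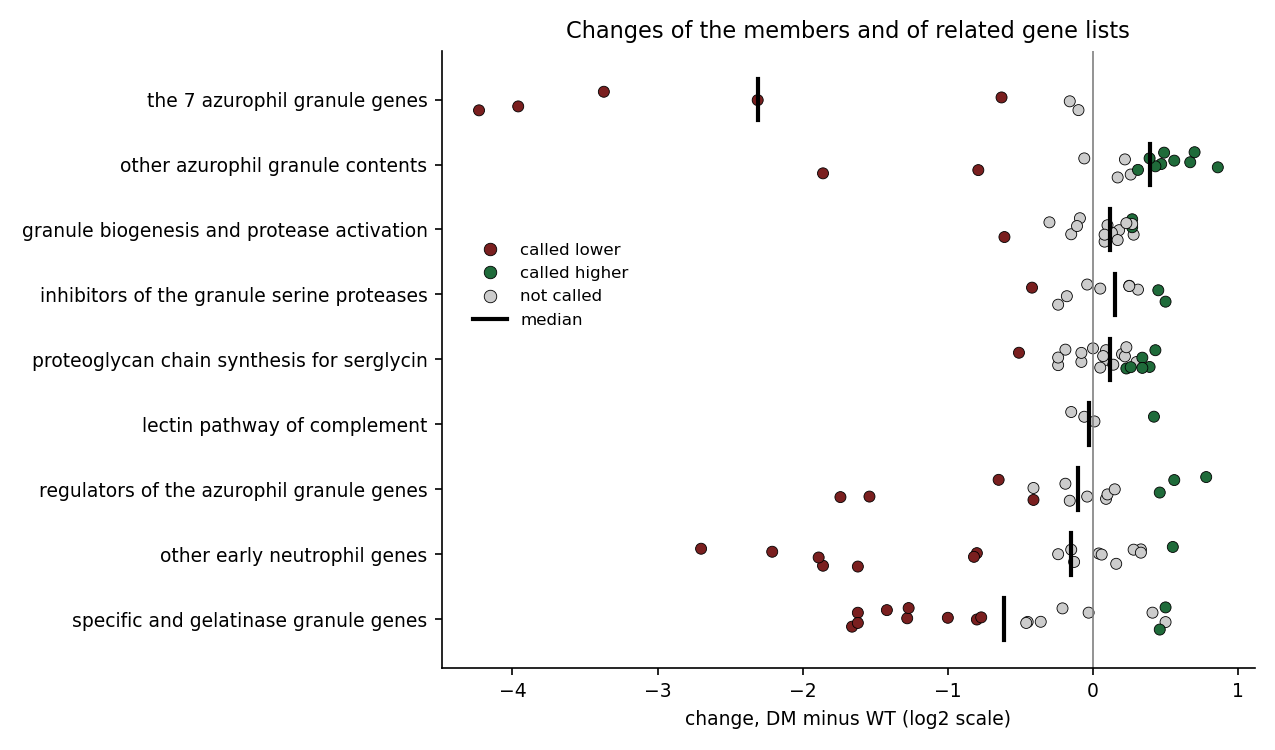
Change from WT to DM (log2 scale) of each tested gene in the members and in 8 related lists, with 1 point per gene, a bar at each list's median, and colours for the limma call. Other azurophil contents lie mostly to the right of 0, while the early neutrophil and specific granule lists hold most of the large falls outside the members.

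Regulators of these genes were divided. Besides transcription factors the list holds Csf3r, a cytokine receptor, which differed by -0.41 (limma, adjusted p = 0.131) and was not called. Of 14 regulators tested, 4 were lower, 3 were higher and 7 were not called, with a median of -0.1. Cebpe, a driver of late granulocyte genes, fell from 10.47, 10.64 and 10.6 to 8.51, 8.8 and 9.17 (-1.74, limma, adjusted p = 0.000157). Gfi1, a repressor that neutrophil formation requires, fell from 10.51, 10.52 and 10.12 to 8.83, 8.6 and 9.1 (-1.54, limma, adjusted p = 0.000306). Myb, a factor of progenitors, fell by 0.65 (limma, adjusted p = 0.0127), a call lost without DM replicate 2 or 3. Klf4, a factor of the monocyte branch, rose by 0.78 (limma, adjusted p = 0.0114). Cebpa, at -0.16 (limma, adjusted p = 0.486), Spi1, which encodes PU.1, at 0.15 (limma, adjusted p = 0.317), and Runx1, at 0.09 (limma, adjusted p = 0.476), were not called, and the sign of Runx1 turned under quantile normalization. Without DM replicate 2 the counts were 2 lower and 1 higher, and 1 was higher without WT replicate 1 or DM replicate 3.

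Among 17 other early neutrophil genes, 7 were lower, 1 was higher and 9 were not called, with a median of -0.15. Some lists share genes, so their counts are not separate. Prss57 was also counted among the azurophil contents, and Ngp and Hp, both lower, are also in the list of specific and gelatinase granule genes. The changes were -2.7 for Ms4a3 (limma, adjusted p = 0.000102), -2.21 for Plac8 (limma, adjusted p = 0.000176) and -1.89 for Nkg7, a granule membrane protein (limma, adjusted p = 0.000155). The count called higher ranged from 0 to 5 when libraries were left out: it was 0 for WT replicate 1, WT replicate 3 or DM replicate 2, 5 for WT replicate 2 and 2 for DM replicate 1. Of 18 genes of the specific and gelatinase granules, 9 were lower, 2 were higher and 7 were not called, with a median of -0.61. The changes were -1.66 for Camp, which encodes cathelicidin (limma, adjusted p = 0.00514), -1.62 for Ngp (limma, adjusted p = 0.00787), -1.62 for Cd177 (limma, adjusted p = 0.00494) and -1.42 for Pglyrp1 (limma, adjusted p = 0.00263). Their higher count became 0 when WT replicate 1 or DM replicate 2 was left out, 4 for WT replicate 2 and 1 for DM replicate 3. The falls in these later granules were smaller than those of Mpo, Elane and Prtn3, a difference that was not tested.

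Markers of other cell types moved with the groups as well, and their part in the results was not tested. Of 18 monocyte and macrophage markers 17 were tested, with 12 called higher and 2 lower, and their summed level was 16.96 to 17.66 in WT and 17.97 to 18.24 in DM libraries. Msr1 rose by 1.0, Ctss by 0.96 and Gpnmb, which carries the largest part of the sum, by 0.96. The 2 called lower were Ly6c2 and Ccr2, markers of monocytes, at -1.13 and -0.78. C1qa, at a WT mean of 2.54, was not tested. C1qb, C1qc and Cd163 were low and differed by -0.05, -0.09 and -0.07. Of 16 mast cell and basophil markers, 15 were tested and 2 were higher and 1 lower, with a summed level of 19.13 to 19.47 in WT and 19.24 to 19.66 in DM libraries. The median was 0.12. The lower count became 3 when WT replicate 1 was left out and 0 for WT replicate 2 or 3 or DM replicate 2 or 3, and the higher count became 1 in each such fit but that for DM replicate 3. Cpa3 differed by 0.24 (limma, adjusted p = 0.34) and Cma1 by 0.07 (limma, adjusted p = 0.806), and both signs turned under quantile normalization. Of 9 eosinophil markers 3 were lower, Epx, Prg3 and Prg2, and none was higher, with a summed level of 15.24 to 15.37 in WT and 14.18 to 14.57 in DM libraries. Of 13 markers of neutrophil maturation 5 were lower and 3 were higher, with a median of -0.38 and 8 of 13 means lower in DM. Their summed level, which a few abundant genes carry, was 15.75 to 16.1 in WT and 15.98 to 16.49 in DM libraries. When WT replicate 1 or DM replicate 3 was left out, 1 of these markers was called higher.

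Of 20 proliferation genes 17 were lower, among them Cdc20 at -0.66, with a summed level of 16.42 to 16.57 in WT and 16.03 to 16.21 in DM libraries. Erythroid and megakaryocyte markers had 16 of 18 tested and 1 called, Vwf at 0.54, with a summed level of 14.6 to 14.84 in WT and 14.71 to 15.07 in DM libraries. Stem and progenitor markers had 15 tested, with 2 higher and 2 lower and a summed level of 15.93 to 16.19 in WT and 15.86 to 16.33 in DM libraries. The lower count became 0 when DM replicate 2 or 3 was left out and 1 for WT replicate 1 or 3, and the higher count became 1 for DM replicate 2. Of 15 lymphoid markers 8 were tested, with Il7r higher at 0.79 and Cd79b lower at -0.27, and Ms4a1, Cd3e and Cd8a were among those under the filter. The call of Cd79b was lost when DM replicate 1 or 2 was left out, and 2 lymphoid genes were lower when WT replicate 2 was. Of the 8 tested, 7 had a lower mean in DM libraries, with a median of -0.1. The summed level of the lymphoid list, at 11.34 to 11.99 in WT and 12.32 to 12.5 in DM libraries, is nearly all Il7r, which was at 11.49, 11.94 and 11.25 in WT and 12.28, 12.47 and 12.3 in DM libraries.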

How the data were processed

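The 6 libraries (3 WT, 3 DM, all in batch 1) were total RNA with depletion of abundant transcripts, per the labels' protocols. The authors deposited rlog values, on the log2 scale; the transform is known here only by the table's title and by its values (-1.97 to 21.88, not whole). The submitters' processing notes name cutadapt 2.6, STAR 2.7.3, DESeq2 1.30.0 and mm10; the counting tool, annotation and use of strand are not given in the sources used here. The 142699 lines, repeated per transcript, were merged into 55487 genes, of which 54435 matched GENCODE M21 on GRCm38. The values were fitted with limma 3.58.1 (lmFit, and eBayes with a trend) in R 4.3.3, for genes with a mean of at least 3, with no covariates, two-sided and Benjamini-Hochberg adjusted. On simulated data with 200 changed genes among 18766, the fit recovered 76.6% of changes of 0.5 and 98.6% of changes of 1, with 13 false calls. The simulated noise was independent for each gene and library, without deviations that genes share in a library. It therefore does not give the rate of false calls in the real libraries. Differences from Elane used an exact permutation test. Alternatives changed the filter, variance model, scaling, block and libraries. Promoter windows came from RefSeq (GRCm38.p6).

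The members and lists were chosen with earlier results of these data known. Named genes were the members, Mllt3, up to 4 called genes with the largest change per list, and paralogs and neighbours of members in a list. The 2 nearest profiles per member were named too. Genes outside this rule (Kit, Ltf, Hp, Ccr2, neighbours in no list, and list genes that were not called) were chosen after their values were seen. Not every gene that this rule selects is reported here.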

Additional observations from a re-analysis of the deposited data

How the results depend on the processing

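Of the 13 alternatives, 1 was added after seeing the data (no filter, without genes at 0 in every library). With no filter on the mean, 138 genes were called, 124 of them lower, and 0 members: Mpo (-4.23), Elane (-3.96), Prtn3 (-3.37), Fcnb (-2.31) and Ctsg (-0.63) kept their direction and lost their calls, with prior degrees of freedom of 0.641 in place of 5.82. Leaving out 1 library gave 1119 to 3474 genes called, 521 to 1151 called lower and 4 to 5 members called lower, with Ctsg between -0.78 and -0.47. The libraries whose absence moved the 2611 calls by over 1.5 times were WT replicate 1 (1173), DM replicate 2 (1119) and DM replicate 3 (1535), and those that moved the 884 lower calls were WT replicate 1 (566), DM replicate 2 (521) and DM replicate 3 (586). Signs turned for Fcna under median centring (-0.02), for Mcpt4 (-0.08), Runx1 (-0.1), Cpa3 (-0.27) and Cma1 (-0.15) under quantile normalization, and, with 1 library left out, for Fcna (-0.06 to 0.07), Mcpt4 (-0.02 to 0.32) and Cma1 (-0.08 to 0.21); the cause was not tested. Serpinb1a and Srgn were called in none of the alternatives. With the replicate number as a block, 3742 genes were called, 1110 lower, with 5 members lower. Ctsc (0.28, limma, adjusted p = 0.00791) and Cpa3 (0.24, limma, adjusted p = 0.0287) gained calls. The deviations of libraries sharing a number correlated at 0.491, 0.116 and 0.0412, and those of different numbers at -0.336 to 0.124. WT replicates 1 and 2 correlated best with the DM library of their own number, but WT replicate 3 with DM replicate 2 (0.124). These values do not settle whether the numbers pair the samples, and the main fit used no block. Depth is unknown, and the shrinkage of rlog values limits what can be said of low genes.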
